A study of Homo sapiens with 6 samples.

Results

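The type II MAGE family was followed through RNA sequencing of ARPE-19, a human line of retinal pigment epithelium. MAGE proteins share a conserved fold, the MAGE homology domain, through which many of them bind RING ubiquitin ligases and steer these to their substrates. Type I MAGE genes lie on the X chromosome and are mostly silent outside the germ line and tumours, whereas type II genes are widely expressed and best known from neurons. The 9 members were taken by symbol from the 21314 entries of the deposited tables, and all 9 were listed: NDN, MAGEH1, TRO, MAGED1, MAGED2, MAGEF1, MAGEL2, MAGEE1 and NSMCE3. The members were selected on their measured counts and FPKM in the comparison described here, by which paralogues were lower and which held their level, so the values of the members in that comparison are a description and carry no p-value.

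All cells received a lentivirus at a multiplicity of infection of 10, were selected with puromycin at 4 µg/ml, and spent 48 h in medium with d-glucose at 37.5 mM before RNA was taken. The control group (3 libraries) carried a control lentivirus, and the PDZK1 group (3 libraries) carried a lentivirus for overexpression of PDZK1, a scaffold protein with PDZ domains. Both groups are selected cell pools, the construct's promoter is not given in the sources used here, and no label says whether the libraries came from separate transductions or cultures, so the spread between libraries may be technical. Whether fewer cells of a kind or less RNA per cell lies behind a lower level cannot be told apart in bulk RNA.

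Total counts ran from 27970618 to 32804567 per library, and PDZK1 counts were 18 to 23 in the control libraries and 2541 to 3020 in the PDZK1 libraries. The keratin genes KRT8 and KRT18 were abundant in every library, whereas RPE65 and TTR, markers of mature retinal pigment epithelium, had 0 counts throughout. None of the 8 pigment epithelium markers tested passed the threshold, and the list of 11 less BEST1 summed to 106 to 136 CPM (read counts relative to the scaled library size) for control and 105 to 121 CPM for PDZK1. BEST1 stood apart in PDZK1 replicate 1, with 11459 counts against 124 to 181 in the other libraries. None of the 4 neuron markers tested passed the threshold, and STMN2 had 0 counts. All 6 listed summed to 123 to 158 CPM for control and 123 to 141 CPM for PDZK1. The log2 fold changes of the 4 ran from -1.07 to 1.53 (1 higher, 3 lower), so the sums do not show that each marker was steady. None of 3 fibroblast and mural markers tested passed either, but all 3 had log2 fold changes above 0 (0.20 to 0.53). The list summed to 67.8 to 81.4 CPM for control and 82.3 to 90.3 CPM for PDZK1, without overlap. Among single tested genes, 11.6% also had groups without overlap in that direction. The part of the list in the results was not tested, and THY1 of that list had 0 counts. PTPRC, the leukocyte marker, had 0 counts, and PECAM1, an endothelial marker, had at most 6.

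The members differ in gene structure and position. In the GENCODE release 29 annotation on GRCh38, NDN (chromosome 15, 23685400 to 23687330, minus strand), MAGEL2 (chromosome 15, 23643549 to 23647867, minus strand), NSMCE3 (chromosome 15, 29264992 to 29269829, minus strand), MAGEF1 (chromosome 3, 184710367 to 184712002, minus strand), MAGEH1 (chromosome X, 55452105 to 55453566, plus strand) and MAGEE1 (chromosome X, 76427724 to 76431353, plus strand) have 1 exon each. The other three are spliced on the plus strand of chromosome X. TRO (54920462 to 54931431) has 11 to 14 exons in its 7 basic transcripts, MAGED1 (51803007 to 51902357) has 13 to 14 and MAGED2 (54807599 to 54816012) has 12 to 15. MAGED2 and TRO lie 104 kb apart, TRO and MAGEH1 521 kb apart, and MAGEL2 and NDN 37.5 kb apart. NSMCE3 overlaps FAM189A1 on the same strand, so some reads could belong to either. No member overlaps another protein-coding gene on the opposite strand there.

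Promoter sequences (250 bases before to 50 after an annotated start, RefSeq, GRCh38.p14) were matched by symbol for 8 of the 9 members; MAGEH1 was not matched. Those of NDN and TRO, which were lower in the PDZK1 libraries, and of MAGED2, the neighbour of TRO that held its level, are shown because NDN and TRO differ in CpG content and TRO and MAGED2 share a stretch. Capitals mark CpG dinucleotides. The NDN window is chr15:23687256-23687555 (minus strand), the TRO window chrX:54920574-54920873 (plus strand) and the MAGED2 window, the second of its 2 listed starts, chrX:54808096-54808395 (plus strand).
NDN: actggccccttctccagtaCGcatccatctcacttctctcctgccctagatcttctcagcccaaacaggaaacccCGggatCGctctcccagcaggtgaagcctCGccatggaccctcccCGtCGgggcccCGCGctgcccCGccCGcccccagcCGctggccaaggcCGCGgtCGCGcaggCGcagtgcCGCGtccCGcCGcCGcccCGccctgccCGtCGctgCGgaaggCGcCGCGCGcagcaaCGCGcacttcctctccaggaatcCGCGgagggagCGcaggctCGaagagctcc
TRO: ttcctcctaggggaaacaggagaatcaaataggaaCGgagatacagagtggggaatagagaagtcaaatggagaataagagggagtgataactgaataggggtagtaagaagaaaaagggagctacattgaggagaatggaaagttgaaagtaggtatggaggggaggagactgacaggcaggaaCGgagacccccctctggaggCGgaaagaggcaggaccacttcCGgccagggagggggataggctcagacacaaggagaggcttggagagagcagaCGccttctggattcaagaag
MAGED2: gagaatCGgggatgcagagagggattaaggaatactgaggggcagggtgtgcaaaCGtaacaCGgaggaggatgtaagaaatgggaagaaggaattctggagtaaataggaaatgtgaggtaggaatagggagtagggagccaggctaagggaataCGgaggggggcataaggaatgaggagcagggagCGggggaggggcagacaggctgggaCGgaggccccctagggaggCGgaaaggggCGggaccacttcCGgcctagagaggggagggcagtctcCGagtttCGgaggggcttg

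The NDN promoter held 35 CpG dinucleotides at 72% GC, more than in 85.9% of the 35116 promoter windows, whose median was 14. The TRO promoter held 5, and the MAGED2 promoter held 11. NSMCE3 and MAGEF1, which held their level, lay between NDN and TRO with 26 and 21. MAGEH1, also lower, had no window, and a part of CpG content was not tested. The TRO and MAGED2 promoters share the run ggaccacttcCGgcc of 15 bases, which no other promoter window holds (2 of 35116), and 73.6% of 254 aligned bases are identical. Aligned to the other member windows, the TRO promoter had identities of 51.6% to 64.8%, the highest with the first listed MAGED2 start. The shared run holds CCGGAAGT on its other strand, a core that factors of the ETS family can bind. The 8 members with a promoter have 10 windows, as MAGED1 and MAGED2 have more than 1. Searched on both strands, CCGGAAGT was found in 4 of the 10 (in TRO, MAGED1, MAGED2 and MAGEF1) and in 4.14% of all promoter windows. It was searched for after the sequences had been seen. The Sp1-type box GGGCGG was found in 8 of the 10 member windows and in 45.0% of all windows. By gene, it was found in 7 of the 8 members, TRO being the exception. CCAAT was found only in the MAGEE1 window among the members (34.6% of all windows), TATAAA only in the first listed MAGED2 window (11.5%), and the cyclic AMP response element TGACGTCA in none (1.85%). A match in letters is not evidence of a bound site.

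Levels per transcript length spanned the family widely. In the control libraries the FPKM (fragments relative to transcript length and library size) was 109.6 ± 8.12 for MAGED1, 52.5 ± 2.03 for MAGED2 and 21.7 ± 0.516 for MAGEF1 (SD, n = 3). The next genes in order of FPKM were TRO at 3.54 ± 0.559 and NSMCE3 at 3.39 ± 0.105, which overlapped in range. MAGEH1 at 2.30 ± 0.227 FPKM and MAGEE1 at 2.09 ± 0.205 FPKM also overlapped, and NDN followed at 0.400 ± 0.0385 FPKM. MAGED1, MAGED2 and MAGEF1 together made up 93.8% to 94.2% of the family's summed FPKM in the control libraries and 95.3% to 96.0% in the PDZK1 libraries.

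In the PDZK1 libraries the 3 most abundant members kept their order, and the rest of the order changed. NSMCE3 came next at 3.32 ± 0.294 FPKM. MAGEE1 at 1.98 ± 0.181 FPKM and TRO at 1.83 ± 0.426 FPKM overlapped in range. MAGEH1 lay below both at 0.775 ± 0.131 FPKM, and NDN was at 0.0102 ± 0.0177 FPKM, listed at 0 in PDZK1 replicates 1 and 2. Summed over the family, control replicates 1 to 3 had 188, 192 and 207 FPKM, and the PDZK1 replicates in the same order had 186, 184 and 185 FPKM. NDN, MAGEH1 and TRO made up 3.09% to 3.29% of that sum in the control libraries and 1.17% to 1.61% in the PDZK1 libraries.

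**Figure D1:**
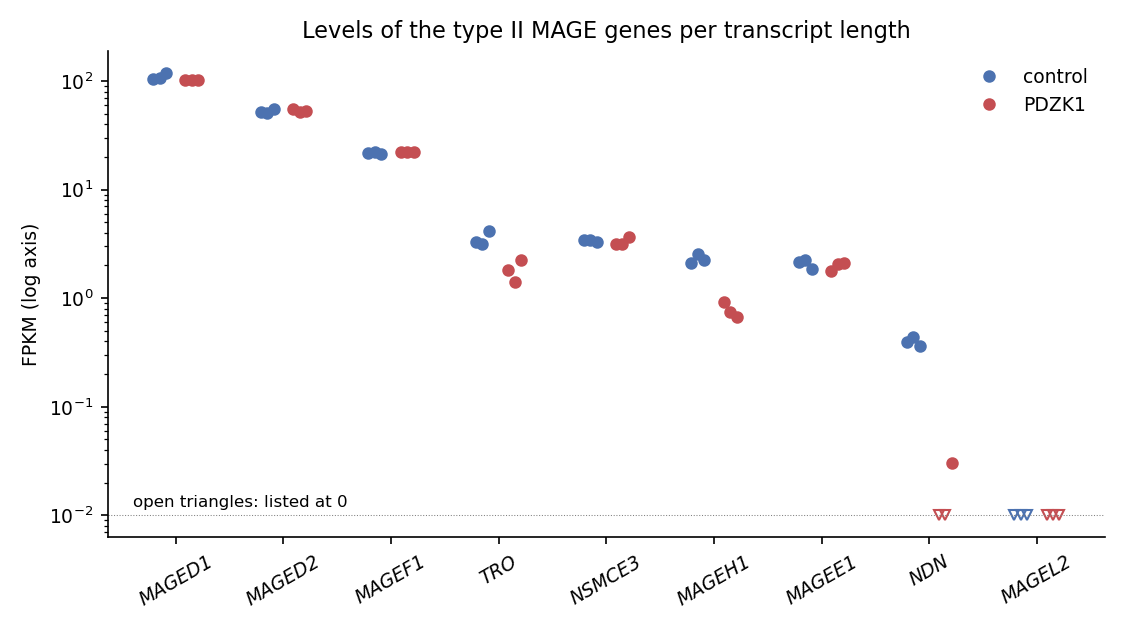
FPKM of the 9 members (log axis) in each control and PDZK1 library, in the order of the control means; open triangles mark libraries in which a gene is listed at 0. NDN, MAGEH1 and TRO separate by group, and MAGED1 does so by a narrow gap (lowest control 103.4, highest PDZK1 101.8 FPKM). In CPM, the groups did not overlap in that direction in 12.3% of tested genes. MAGED1, MAGED2 and MAGEF1 stay above 20 FPKM in every library.

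Of the 9 members, 3 were past the adjusted p-value threshold of 0.05 in the edgeR fit across all genes and all 3 were lower in the PDZK1 libraries, beside 2.41% of the 13645 tested genes called lower, 1.41% called higher and 3.83% called in either direction. The contrast was in view when the members were chosen, so nothing is read from this count. The CPM of the groups did not overlap in 4 members (NDN, MAGEH1, TRO and MAGED1), all lower in the PDZK1 libraries, beside 12.3% of the tested genes in that direction and 23.9% in either. MAGEL2 did not pass the filter on low counts, and NDN passed it only through the control libraries, where it is high.

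NDN and MAGEL2 are neighbours in the imprinted Prader-Willi region and are expressed from the paternal chromosome. NDN encodes necdin, a growth suppressor of postmitotic neurons that binds E2F1. Control replicates 1 to 3 held 27, 29 and 21 NDN counts, whereas PDZK1 replicates 1 to 3 held 0, 0 and 3. No PDZK1 library thus exceeded the limit of 3 counts that a count of 0 still allows, and every control library lay above it. The level was 0.845 ± 0.0893 CPM in the control group and 0.0315 ± 0.0546 CPM in the PDZK1 group (SD, n = 3 each). Summed over libraries, 77 counts stood against 3, a ratio of rates of 27.3. Its counting interval was 9.0 to 135 (95%, exact, counting error only), which leaves out the spread between libraries. NDN was chosen on these values, so the interval is a description and not a test. The fitted log2 fold change was -4.60 (SE 0.751), the sixth lowest of all tested genes, and its size depends on the prior count. Without control replicate 2, or without PDZK1 replicate 1, NDN was no longer past the threshold, with log2 fold changes of -4.05 to -7.73 when single libraries were dropped.

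MAGEL2, whose product works with the ligase TRIM27 in endosomal sorting, had 0 counts in all 6 libraries. The limit of 3 counts corresponds to 0.0915 to 0.107 CPM per library, so a level under that could have been missed in a single library. The limit over all 6 libraries together is lower.

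MAGEH1 encodes a short MAGE protein that, like necdin and MAGED1, has been linked to the neurotrophin receptor p75 (NGFR). Control replicates 1 to 3 held 107, 124 and 99 counts, whereas PDZK1 replicates 1 to 3 held 46, 38 and 33. Every control library was thus above every PDZK1 library. The level was 3.64 ± 0.354 CPM against 1.21 ± 0.203 CPM (SD, n = 3 each), 33.3% of the control level, with a log2 fold change of -1.58 (SE 0.215).

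TRO encodes trophinin, an adhesion protein first known from the contact of the embryo with the uterine epithelium. Control replicates 1 to 3 held 389, 406 and 386 counts, whereas PDZK1 replicates 1 to 3 held 173, 149 and 213. Every control library was above every PDZK1 library, and PDZK1 replicate 3 was the highest of its group. The level was 13.1 ± 0.976 CPM against 5.55 ± 1.09 CPM (SD, n = 3 each), 42.5% of the control level, with a log2 fold change of -1.23 (SE 0.146). TRO was not past the threshold in the 3 fits on log2 FPKM.

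The 5 other members tested moved little. MAGED1, which binds p75 and the ligase PJA1, had 304, 315 and 351 CPM in control against 298, 299 and 297 CPM in PDZK1 replicates 1 to 3. The groups did not overlap, but the gap to the nearest control library was small and control replicate 3 was high. The log2 fold change was -0.12 (SE 0.0509), and -0.056 without control replicate 3. MAGED2, which protects the salt transporters of the kidney tubule before birth, had 116, 114 and 123 CPM against 123, 117 and 117 CPM, with a log2 fold change of 0.015 (SE 0.0410). MAGEF1, a partner of the ligase NSMCE1 in the turnover of the iron-sulphur assembly factor MMS19, had 39.9, 41.4 and 39.6 CPM against 40.5, 41.4 and 40.4 CPM, with a log2 fold change of 0.016 (SE 0.0496). The ranges of the groups overlapped for both of these genes.

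NSMCE3, a subunit of the SMC5/6 complex that keeps chromosomes intact, had 18.2, 18.2 and 17.3 CPM in control against 16.5, 16.5 and 19.1 CPM in PDZK1 replicates 1 to 3. The highest and the lowest libraries were both in the PDZK1 group, and the log2 fold change was -0.043 (SE 0.0824). MAGEE1, a partner of alpha-dystrobrevin (DTNA), had 8.57, 8.90 and 7.36 CPM against 6.96, 8.21 and 8.20 CPM, with a log2 fold change of -0.089 (SE 0.123). The groups overlapped in both genes. Within a library, TRO was 0.907 to 1.28 times as abundant as NSMCE3 by FPKM in the control group and 0.451 to 0.619 times in the PDZK1 group.

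**Figure D2:**
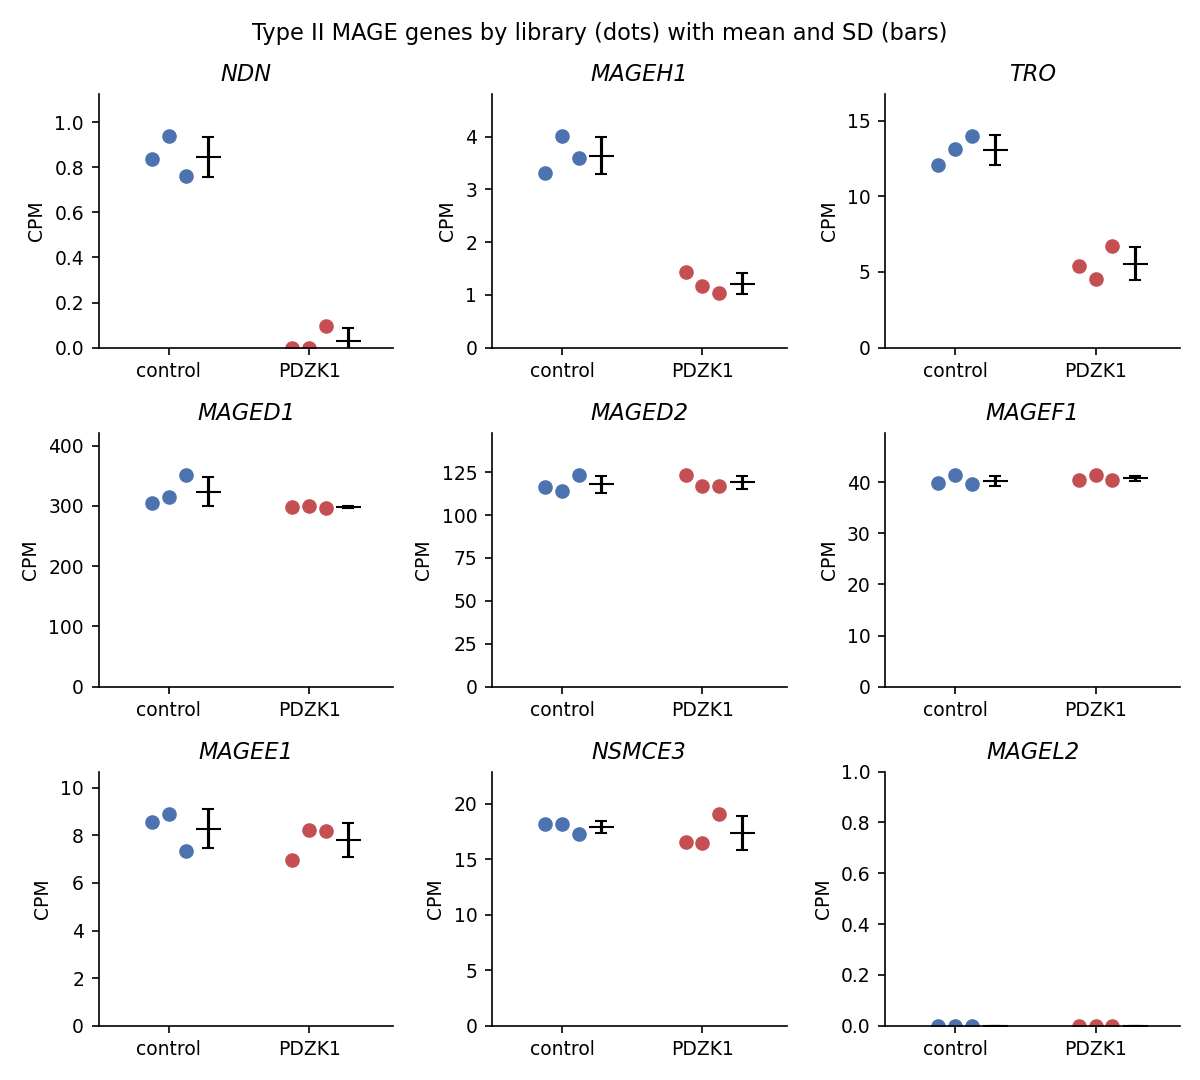
CPM of each member by library (dots), with the group mean and SD (n = 3; bars cut at 0); each panel has its own axis from 0. MAGEH1 and TRO lie in the PDZK1 group at 33.3% and 42.5% of the control mean, NDN lies at or under the limit of 3 counts there, and MAGEL2 is at 0 in all 6 libraries.

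The deposited FPKM and counts of 1 gene gave nearly a fixed ratio in every library, with TRO as the exception among the members above the floor. FPKM was divided by CPM and by the median of that ratio over the tested genes of the library, which gives a quantity that falls as the transcript length used in the FPKM grows. For MAGEH1, MAGED1, MAGED2, MAGEF1, MAGEE1 and NSMCE3 the highest library exceeded the lowest by at most 1.007 times. For TRO the ratio was 0.950, 0.826 and 1.04 in control against 1.15, 1.07 and 1.16 in PDZK1 replicates 1 to 3. All PDZK1 libraries were above all control libraries, as in 3.87% of 13490 genes with a ratio and in 4.46% of those called lower. The groups also did not overlap for MAGED1, within its narrow range, as in 11.7% of genes in either direction. TRO is also the member whose annotated transcripts differ most in length, from 1115 to 4647 bases, while those of MAGED1 run from 2701 to 2875 bases. In FPKM, TRO thus stood at 51.7% of the control mean, against 42.5% in CPM. The counts per transcript were not analysed here.

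**Figure D3:**
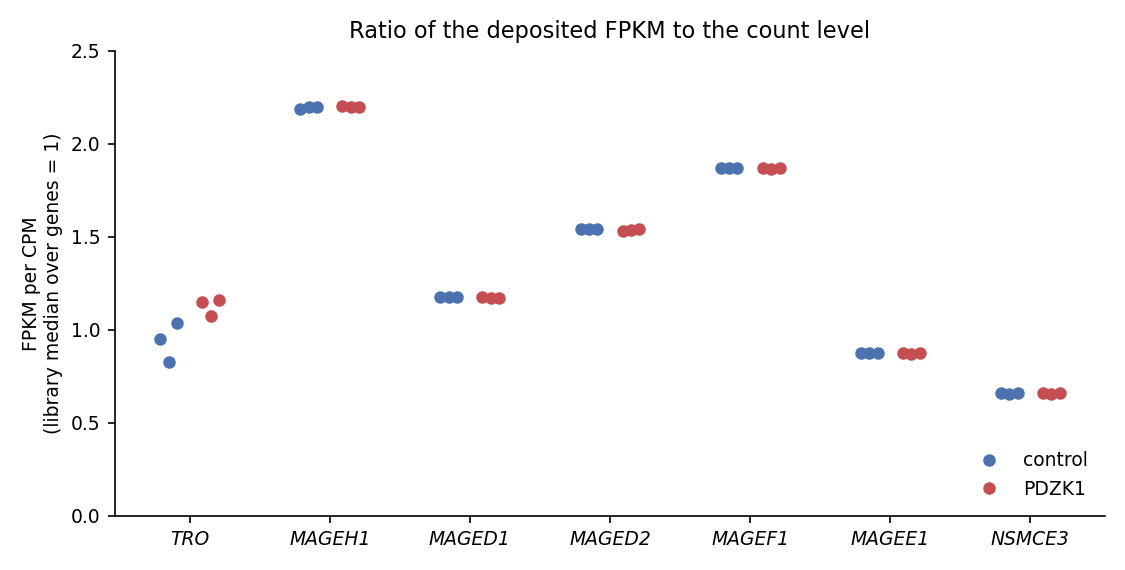
Deposited FPKM divided by CPM, with the median over tested genes of each library set to 1, for 7 members in each control and PDZK1 library. TRO varies from 0.826 to 1.16 and is higher in the PDZK1 libraries, whereas each other member plotted is flat.

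The remaining type II genes listed, MAGED4, MAGED4B and MAGEE2, were not among the 9. MAGEE2 had at most 2 counts in any library. MAGED4 and MAGED4B are near-identical copies. Of the 31-base words in annotated MAGED4 transcripts, 99.3% also occur in MAGED4B transcripts, so the split of reads between them is uncertain. MAGED4 had 14.1, 15.6 and 15.5 CPM in control against 10.5, 12 and 16.6 CPM in PDZK1 replicates 1 to 3 (log2 fold change -0.21, SE 0.156, edgeR adjusted p 0.551). MAGED4B had 18.9, 17.6 and 17.3 CPM against 15.7, 12.3 and 8.42 CPM (log2 fold change -0.56, SE 0.207, edgeR adjusted p 0.224). Where one copy was high among the PDZK1 libraries, the other was low.

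Summed into 1 entry, the pair had 33.1, 33.2 and 32.8 CPM in control against 26.2, 24.3 and 25 CPM in PDZK1 replicates 1 to 3. The sum varied far less within each group than either copy in the PDZK1 group, and the groups did not overlap. It fell from 33 ± 0.184 to 25.2 ± 0.993 CPM (SD, n = 3 each), with a log2 fold change of -0.39 (SE 0.0553, 95% interval -0.51 to -0.27, edgeR adjusted p 0.00457 over 13644 genes). The sum was chosen after the values of the copies had been seen, so its adjusted p-value and interval are a description and not a test. Each of its 11 alternatives was past the threshold (edgeR or DESeq2 adjusted p 6.5e-05 to 0.0434). These are refits of the same libraries and are not support.

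**Figure D4:**
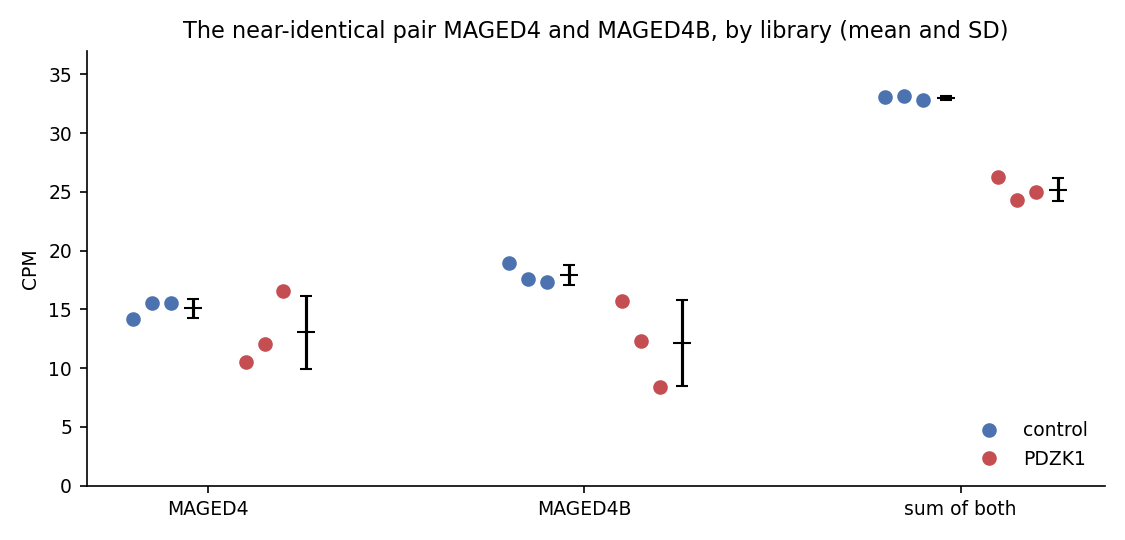
CPM of MAGED4, MAGED4B and their sum by library (dots), with mean and SD (n = 3). In the PDZK1 group the copies vary in opposite directions, and the sum lies at 24.3 to 26.2 CPM, below the 32.8 to 33.2 CPM of the control libraries.

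Type I MAGE genes were near the floor. Of 25 listed, 19 had 0 counts in all 6 libraries, 22 had at most 3 counts in every library, and the highest count was 6, so none could be tested.

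The partners through which the family is known to act were followed in 10 lists, which hold 89 tested genes besides the members, MAGED4 and MAGED4B included. Of these, 1 was higher and 2 were lower past the threshold (3.37% of the 89, beside 3.83% of all tested genes), with a median log2 fold change of 0.015 and a median of about 0 over all genes. XIAP, an inhibitor of caspases that MAGED1 binds, rose from 120.5 ± 5.46 to 138 ± 1.12 CPM (SD, n = 3 each), with a log2 fold change of 0.20 (SE 0.0391, edgeR adjusted p 0.0236). It was no longer past the threshold without control replicate 2 or without PDZK1 replicate 1, 2 or 3, with 0.17 to 0.23 when single libraries were dropped, nor with the replicate block (adjusted p 0.0932) or in the 3 fits on log2 FPKM by limma (adjusted p 0.113 to 0.130). The 10 other ubiquitin and SUMO enzymes tested were not past the threshold, with TRIM27, the ligase of MAGEL2, at 0.091 (SE 0.0424, edgeR adjusted p 0.307) and USP7 at 0.039 (SE 0.0318, edgeR adjusted p 0.585).

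Apart from the list of the 15q11-q13 region, no gene of the other lists passed the threshold in either direction. None of 16 tested binding partners of NDN, MAGED1 and MAGEH1 passed (10 higher, 6 lower, median 0.020). Among them, E2F1 had a log2 fold change of -0.25 (95% interval -0.51 to 0.010, edgeR adjusted p 0.307). NGFR had 0 to 7 counts per library. None of 8 SMC5/6 genes (median 0.037), 11 WASH and retromer genes (0.034), 9 partners of MAGED2, TRO and MAGEE1 (-0.024) or 8 genes of iron-sulphur assembly (-0.077) passed. None of 14 genes of DNA methylation and imprint maintenance passed (median 0.028). At an unadjusted p under 0.05 there were 13 of the 89 genes, beside 2388 of all 13645 tested.

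The imprinted 15q11-q13 region held the 2 lower genes. GABRA5, a subunit of GABA-A receptors, fell from 17.8 ± 1.46 to 10.5 ± 0.494 CPM, with a log2 fold change of -0.76 (SE 0.0921, edgeR adjusted p 0.0020, n = 3 each). GABRA5 was past the threshold in all 14 alternatives. SNRPN, like NDN a paternally expressed gene of that region, had a log2 fold change of 0.034 (SE 0.0362, edgeR adjusted p 0.699), and MKRN3, also paternally expressed, -0.19 (SE 0.159, edgeR adjusted p 0.605). Over the 12 genes tested in that region the median was -0.13, with 3 higher and 9 lower.

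Genome neighbours were compared to see whether a member moved with its surroundings. None of the 5 tested genes within 1 Mb of NDN passed the threshold, and their log2 fold changes ran from -0.19 to -0.041. None of the 10 non-member genes within 1 Mb of TRO passed, with a median of -0.039, 6 lower and 4 higher. MAGED2, 104 kb from TRO, was at 0.015 beside -1.23 for TRO, and APEX2, 68.9 kb away on the other side, was at -0.13 (SE 0.0674, edgeR adjusted p 0.357). Among 7 non-member genes within 1 Mb of MAGEH1, KLF8 alone was past the threshold, and all 7 were lower, with a median of -0.13. KLF8, a Krüppel-like transcription factor gene, had 38, 26 and 10 counts in control against 0, 4 and 0 in PDZK1 replicates 1 to 3 (log2 fold change -4.15, SE 0.888, edgeR adjusted p 0.0348), and it lost the threshold without control replicate 1, control replicate 2, PDZK1 replicate 1 or PDZK1 replicate 3. USP51, the nearest tested neighbour of MAGEH1 at 31.1 kb, had 18, 26 and 15 counts against 9, 0 and 4 (edgeR adjusted p 0.134). Within 1 Mb of MAGED1 (6 genes, MAGED4 and MAGED4B among them), MAGEF1 (25), MAGEE1 (2) and NSMCE3 (8), no gene passed. Over the 475 other genes tested on chromosome X the median log2 fold change was 0.0016, with 49.7% lower.

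**Figure D5:**
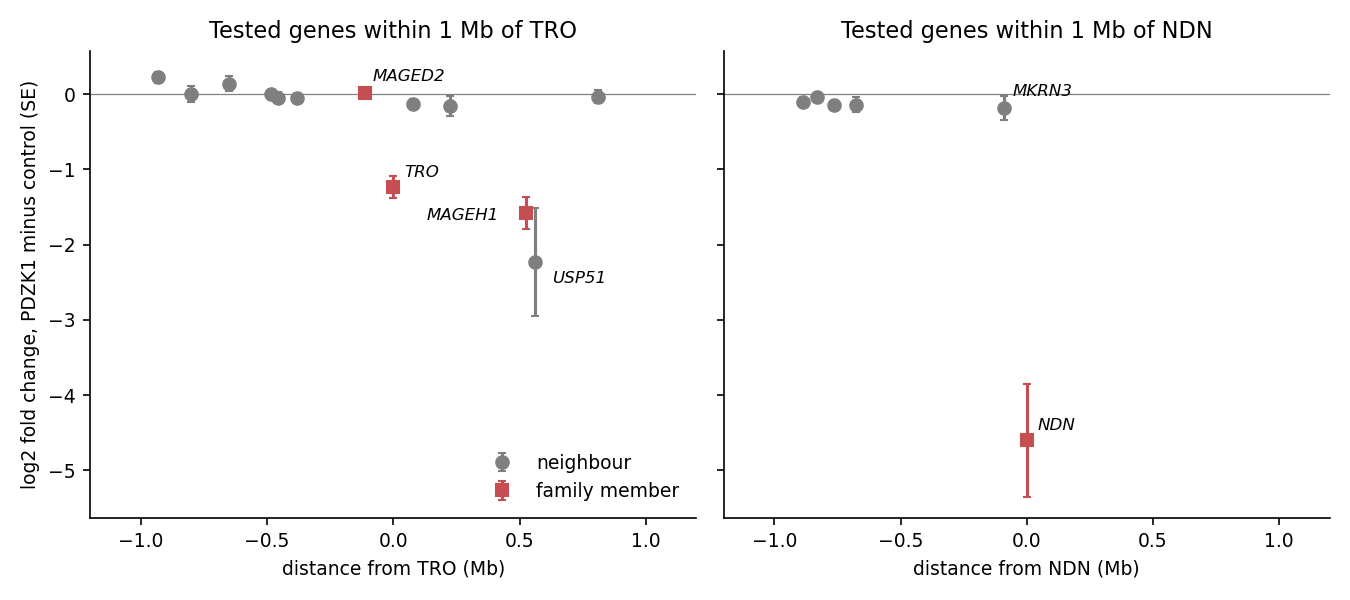
Log2 fold change (PDZK1 minus control, bars SE) of tested genes against their distance in Mb from TRO and from NDN; squares are family members and circles other genes. MAGED2 lies at 0.015 beside TRO at -1.23, and the 5 neighbours of NDN lie between -0.19 and -0.041.

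The genes whose profile over the 6 libraries lay nearest to NDN and MAGEH1, the members with the lowest log2 fold changes, were found among 11100 tested genes with a mean of at least 5 CPM. Nearness was the root mean square difference of centred log2 CPM. For NDN the nearest were QPRT (0.657), ITIH5 (0.744), CSRP1 (0.795), ANXA8 (0.946) and MST1R (1.03). For MAGEH1 they were ZNF883 (0.110), SLCO1A2 (0.152), SULT1A1 (0.212), ANGPTL7 (0.242) and MST1R (0.242). The distances of the 2 members are not comparable, since NDN had 0, 0 and 3 counts in the PDZK1 libraries. MST1R, a receptor tyrosine kinase gene, was in both lists. Both members were picked for being lower in the PDZK1 group, so lowered genes were bound to be found, and nothing is read from the lists. ZNF883 had 7.86, 10.1 and 10.5 CPM in control against 3.50, 2.99 and 2.46 CPM in PDZK1 replicates 1 to 3.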

How the data were processed

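Libraries were prepared from total RNA of ARPE-19 cells with a VAHTS Universal V6 kit. The submitters' processing notes name fastp 0.20.1, HISAT2 2.2.1 and GRCh38; the counting program, annotation release and strandedness are not given in the sources used here. The authors deposited estimated counts per gene as whole numbers with no depth scaling, and deposited FPKM, which scale by transcript length and library. A further 3 columns in either table fit no sample label and were left unused. The 853 assembled loci among 21314 entries (0.519% to 0.536% of counts) were left out; 20229 of 20461 Ensembl identifiers matched GENCODE release 29.

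Counts were tested with edgeR 4.0.16 (R 4.3.3): filterByExpr (13645 genes kept), TMM scaling, robust quasi-likelihood test without covariates, Benjamini-Hochberg adjustment over all genes, threshold 0.05. The scripts were tested on simulated data. Alternatives used DESeq2 1.42.0, limma 3.58.1 on log2 FPKM (pseudocounts of 1 and 0.1, mean FPKM of at least 0.5 or no filter), other scalings, no count filter, an added fold change of 1.5, the replicate number as a block, and each library left out.

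The members, the gene lists and the rules were chosen with earlier results of these data known. Named genes are the members, PDZK1, list genes and neighbours within 1 Mb past the threshold (at most 3 each), and the 5 nearest profiles of the 2 lowest members; others (USP51, APEX2, BEST1 and list genes not past the threshold) were named after their values were seen. Floors of 3 counts and counting intervals (95%) cover counting error only, since reads lacking molecular identifiers do not count molecules. Values of some listed genes are not reported here.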

Additional observations from a re-analysis of the deposited data

How the results depend on the processing

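The count of all genes past the threshold (522) was 814 with DESeq2, 191 on log2 FPKM with a pseudocount of 1, 187 with 0.1, 184 without the filter, 163 with the replicate block, 171 with an added fold change of 1.5, and 181 to 875 when single libraries were dropped, highest without control replicate 3 and lowest without PDZK1 replicate 1. The cause was not tested. The count of members (3) was 1, MAGEH1, on log2 FPKM with either pseudocount under the filter, which NDN does not pass, and 2 to 3 in the fits that left out a library. It was 2 on log2 FPKM without the filter, which lacked TRO, and 2 with the replicate block, which lacked NDN. Other scalings, DESeq2, no count filter and the added fold change kept NDN, MAGEH1 and TRO. The members were chosen on this contrast, so their passing in refits of the same values describes the processing and is not support. The count of partner and pathway genes (3) was 1 in each of the 3 fits on log2 FPKM, 1 with the replicate block, 1 with the added fold change, and 1 to 6 in the fits that left out a library.

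Under library totals only, 46.6% of the calls were higher, against 37.0%. Across genes, residuals of libraries 1, 2 and 3 of either group had correlations of -0.046, -0.056 and -0.143, so the residuals showed no pairing by number. No label says whether libraries of the same number were handled together, and these correlations cannot settle it. The signs of the members held in their alternatives, except MAGED2 (-0.0098 to 0.048 in the fits that left out a library). NDN on FPKM was at -0.47 with a pseudocount of 1, which understates low genes. KLF8 lost the threshold under the replicate block and on log2 FPKM as well. With counts near the floor, depth limits NDN and KLF8.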
